A study of Mus musculus with 20 samples.

Results

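The receptor for colony-stimulating factor 1 and the genes named after the same family of growth factors are described here in 20 hippocampal RNA-seq libraries. The set holds 6 genes, taken by symbol from the deposited count tables: the receptor gene Csf1r, its ligand genes Csf1 and Il34, the GM-CSF receptor subunit genes Csf2ra and Csf2rb, and the G-CSF receptor gene Csf3r. They are 6 of the 24513 genes listed, and all 6 passed the filter on low counts that left 16657 genes for testing. CPM below are gene counts scaled to the depth and composition of each library by TMM (trimmed mean of M-values).

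Hippocampi of male mice, 9 months old and of strain C57BL/6J by their labels, gave 5 libraries for each of 4 genotypes. By their labels, PS19/C3aR KO mice combined the PS19 tau transgene with a knockout of the complement receptor C3aR, PS19 mice had the transgene alone, C3aR KO mice the knockout alone, and WT mice neither. The PS19 transgene expresses a mutant form of human tau, of a kind found in families with frontotemporal dementia, under the mouse prion promoter, and so gives tau in excess of the mouse's own. C3aR is the receptor for the complement fragment C3a, encoded by C3ar1; the labels do not say how it was disrupted.

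CSF1R is a receptor tyrosine kinase on microglia and other macrophages, and microglia depend on its signal to survive. In the brain its ligand IL-34 comes mainly from neurons of the forebrain, and CSF1 mainly from glia. GM-CSF acts through an alpha subunit (CSF2RA) and a beta subunit (CSF2RB) that the receptors for IL-3 and IL-5 also use, and the G-CSF receptor CSF3R is best known from neutrophils and their precursors.

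The targeted gene went against the C3aR KO label. C3ar1 averaged 17.0 ± 1.58 CPM in the PS19/C3aR KO libraries, 10.3 ± 3.43 CPM in PS19, 16.0 ± 1.48 CPM in C3aR KO and 2.09 ± 0.286 CPM in WT (SD, n = 5 each). Its log2 fold change was 2.94 (edgeR adjusted p = 9.51e-08) in the libraries labelled C3aR KO relative to WT, and every direction below that involves this label is that of the libraries so labelled. Prnp, whose promoter drives the transgene, matched the PS19 label, with 1828 to 2026 CPM in PS19/C3aR KO libraries and 1837 to 1916 CPM in PS19 libraries, against 825.1 to 871.3 CPM in C3aR KO and 824.3 to 948.8 CPM in WT. Gene counts per library ranged from 33885850 to 47828111. PS19 library 5 stood apart from the other PS19 libraries: the summed level of 15 general microglial markers was 435 CPM there and 922 to 1090 CPM in the other 4. Its astrocyte marker sum was also the lowest of its group, at 7160 CPM against 8340 to 10900 CPM, and its share of gene counts on the ribosomal RNA precursor Rn45s the highest, at 3.65% against 0.873 to 1.77%. PS19 library 3 stood apart in neutrophil markers, at a summed 77.7 CPM for 10 genes against 8.95 to 13 CPM in the other 19 libraries. Since no label states that the 5 libraries of a genotype came from separate animals, p-values here reflect spread between libraries, part of which may be technical.

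Promoter sequence was at hand for Csf1, Csf2ra and Csf3r, 3 of the 6 genes, from the RefSeq table on GRCm38.p6. The 250 bases before each RefSeq start are shown, 5′ to 3′ on the gene's strand, because Csf1 and Csf3r moved together in the counts and Csf2ra did not. Capitals mark GAGGAA, the purine-rich core bound by PU.1 (Spi1), the myeloid transcription factor. The windows are chr3:107760470-107760719 (minus strand) for Csf1, chr19:61228419-61228668 (minus strand) for Csf2ra and chr4:126024409-126024658 (plus strand) for Csf3r.
Csf1: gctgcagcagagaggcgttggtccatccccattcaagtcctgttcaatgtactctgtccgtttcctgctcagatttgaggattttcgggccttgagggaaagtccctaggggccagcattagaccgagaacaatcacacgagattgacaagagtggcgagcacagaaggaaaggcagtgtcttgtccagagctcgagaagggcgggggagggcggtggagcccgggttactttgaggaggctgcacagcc
Csf2ra: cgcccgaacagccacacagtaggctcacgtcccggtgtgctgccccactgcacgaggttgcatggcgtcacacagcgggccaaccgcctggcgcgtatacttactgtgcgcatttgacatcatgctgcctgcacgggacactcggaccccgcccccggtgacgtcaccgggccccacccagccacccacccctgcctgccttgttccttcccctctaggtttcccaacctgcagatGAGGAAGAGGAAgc
Csf3r: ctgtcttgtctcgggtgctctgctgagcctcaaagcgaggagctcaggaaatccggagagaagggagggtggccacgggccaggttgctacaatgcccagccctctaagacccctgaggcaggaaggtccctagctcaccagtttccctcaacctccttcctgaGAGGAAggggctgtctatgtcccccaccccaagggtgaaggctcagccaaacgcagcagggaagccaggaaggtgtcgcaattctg
The Csf3r window held 1 GAGGAA, the Csf2ra window held 2 that stand next to each other without overlap, and the Csf1 window held 0. Both strands were searched, and all 3 matches lay on the gene's own strand. Over the same 250 bases, 23.3% of 32851 RefSeq promoters held GAGGAA. The AP-1 sequence TGACTCA, held by 4.46% of promoters, and the STAT sequence TTCNNNGAA, held by 7.02%, had no match in the 3 windows. These are matches of letters and not measured binding. In the GENCODE annotation Csf3r starts at 126024550 and Csf2ra at 61228429, within their windows, so the last bases of both windows lie inside those genes. The Csf3r match and 1 Csf2ra match lie in that part, and the other Csf2ra match spans its edge.

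Per kilobase of exon, Il34 and Csf1r were the most abundant of the 6 transcripts in WT hippocampus and Csf2rb the least. Il34 averaged 19.2 ± 1.65 CPM per kb in WT and Csf1r 16.5 ± 1.39 CPM per kb, with overlapping ranges. Csf2ra followed at 8.74 ± 1.31 CPM per kb, Csf1 at 5.95 ± 0.726, Csf3r at 2.22 ± 0.406 and Csf2rb at 0.202 ± 0.0237 CPM per kb in WT (SD, n = 5). The ranges of these 4 genes did not overlap each other in WT. In PS19 libraries Csf1r stood first, at 22.1 to 38.1 CPM per kb, above Il34 at 16.2 to 19.5 CPM per kb. The PS19 ranges of Csf2ra (8.21 to 11.8 CPM per kb), Csf1 (6.85 to 11.0 CPM per kb) and Csf3r (2.77 to 9.44 CPM per kb) overlapped their neighbours, and Csf2rb was again lowest, at 0.365 to 1.10 CPM per kb. Exon lengths were taken over all annotated transcripts of a gene, from 1.96 kb for Il34 to 7.28 kb for Csf2rb, so a gene that uses short transcripts is understated.

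**Figure D1:**
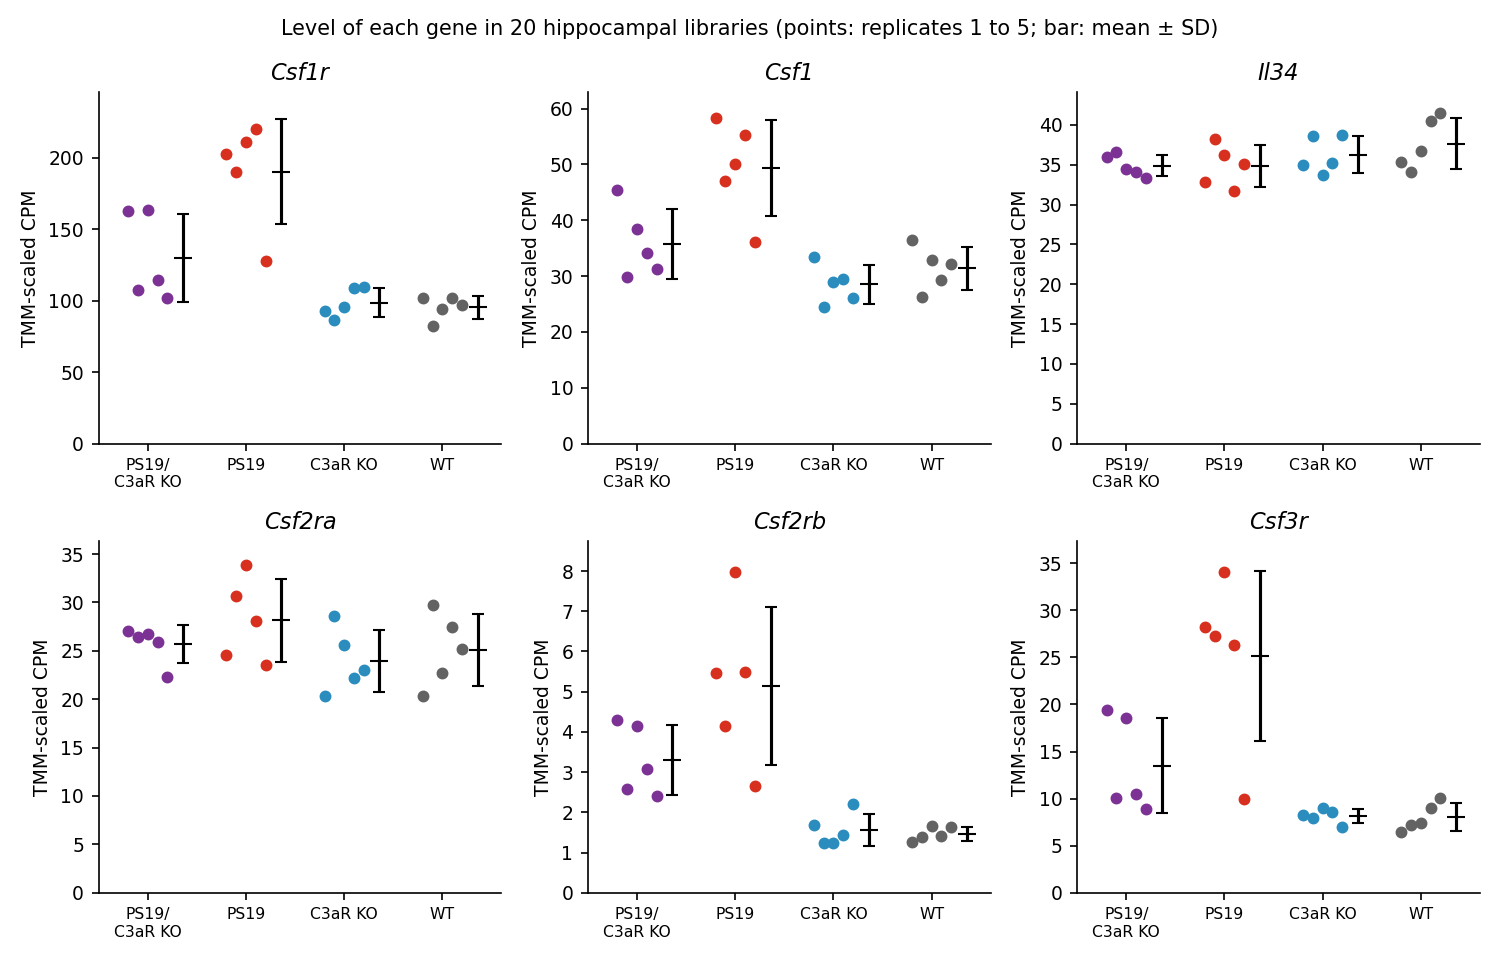
Level of each of the 6 genes in TMM-scaled CPM (vertical axes, from 0) in PS19/C3aR KO, PS19, C3aR KO and WT libraries, with points for replicates 1 to 5 from left to right and bars for the mean ± SD. Csf1r in PS19 sits between 127.5 and 219.8 CPM, above all WT libraries at 82.5 to 102 CPM, while the Il34 ranges of all 4 genotypes overlap.

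PS19 was set against WT to see which of these transcripts changed with the tau transgene. The receptor gene Csf1r, its ligand gene Csf1, the shared beta subunit gene Csf2rb and the G-CSF receptor gene Csf3r rose, by 1.57-fold (Csf1) to 3.50-fold (Csf2rb). The second ligand gene, Il34, and the alpha subunit gene Csf2ra did not pass. Thus 4 of 6 members rose at an edgeR adjusted p below 0.05, where 7.5% of all tested genes rose, and the members' median log2 fold change was 0.82 against −0.01 over all genes. In bulk tissue, more cells of a type and more RNA per cell cannot be told apart.

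Csf1r, on chromosome 18 from 61100598 to 61132149 (mm10, plus strand), had 203, 190.2, 211, 219.8 and 127.5 CPM in PS19 libraries 1 to 5, against 102, 82.5, 93.8, 102 and 96.6 CPM in WT libraries. No PS19 library overlapped the WT range, and PS19 library 5 was the lowest of its group. Csf1r thus rose by 0.996 on the log2 scale (SE 0.146, 95% interval 0.69 to 1.30, edgeR adjusted p = 0.000347). Csf1r shares 873 exon bases with Hmgxb3 on the opposite strand, and the strand setting of the counting is not given in the sources used here. Hmgxb3 itself had a log2 fold change of −0.08 (adjusted p = 0.232).

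Csf1, on chromosome 3 from 107741048 to 107760469 (minus strand), encodes the ligand that gives the receptor its name. It had 58.3, 47.0, 50.0, 55.3 and 36.2 CPM in PS19 libraries, against 36.4, 26.3, 32.9, 29.3 and 32.2 CPM in WT libraries. Only PS19 library 5 fell within the WT range. This was a rise of 0.65 on the log2 scale (SE 0.129, edgeR adjusted p = 0.00291). Il34, on chromosome 8 from 110741829 to 110805924 (minus strand), encodes the other ligand and had 32.8, 38.2, 36.3, 31.7 and 35.1 CPM in PS19 libraries, against 35.3, 34.1, 36.8, 40.5 and 41.5 CPM in WT libraries. The groups overlapped, with a log2 fold change of −0.11 (95% interval −0.24 to 0.02, adjusted p = 0.279). A pair of antisense genes, Gm15894 and Gm15895, overlap Il34 exons by 22 and 75 bases.

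Csf2rb, on chromosome 15 from 78325752 to 78353847 (plus strand), encodes the beta subunit shared by the receptors for GM-CSF, IL-3 and IL-5. It had 5.46, 4.15, 7.98, 5.48 and 2.66 CPM in PS19 libraries, against 1.26, 1.39, 1.66, 1.41 and 1.64 CPM in WT libraries. The groups did not overlap, although the WT values rest on only 41 to 63 counts a library. Csf2rb rose by 1.81 on the log2 scale (SE 0.247; edgeR adjusted p = 0.000239). Csf2rb2, a near-identical neighbour that encodes the beta subunit of an IL-3 receptor found in mice, averaged 4.06 ± 0.957 CPM in PS19 and 2.52 ± 0.562 CPM in WT (SD, n = 5 each), a log2 fold change of 0.69 that did not pass (adjusted p = 0.0690). Reads that align to both genes may have been left out of either count, so the values of this pair are uncertain.

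Csf2ra, on chromosome 19 from 61223957 to 61228429 (minus strand), encodes the alpha subunit that binds GM-CSF. It had 24.6, 30.7, 33.9, 28.1 and 23.6 CPM in PS19 libraries, against 20.3, 29.8, 22.7, 27.4 and 25.2 CPM in WT libraries. The groups overlapped, with a log2 fold change of 0.17 (95% interval −0.07 to 0.40, edgeR adjusted p = 0.399). Its partner subunit gene Csf2rb was 3.50-fold higher in PS19 than in WT.

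Csf3r, on chromosome 4 from 126024550 to 126044440 (plus strand), encodes the receptor for G-CSF. It had 28.2, 27.2, 34.1, 26.3 and 9.99 CPM in PS19 libraries, against 6.44, 7.21, 7.44, 9.01 and 10.05 CPM in WT libraries. PS19 libraries 1 to 4 were above the whole WT range and library 5 was inside it. Csf3r rose by 1.65 on the log2 scale (SE 0.263; edgeR adjusted p = 0.000629). The highest Csf3r value came from PS19 library 3, the one high in neutrophil markers. With that library left out the rise was 1.51 (adjusted p = 0.00263). The neutrophil marker sum was 8.95 to 12.4 CPM in the other 4 PS19 libraries, against 9.11 to 13 CPM in the 15 libraries of the other genotypes. Cxcr2 alone averaged 9.42 CPM in PS19 and 9.58 CPM in WT, so this sum says little about the other markers. Of 6 neutrophil markers tested, edgeR called 2 higher in PS19. It gave 5 of them an unadjusted p below 0.05, as it did 4126 of all 16657 genes. Without PS19 library 3 it called 0 higher. The part of neutrophils in the Csf3r rise was not tested.

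Of the 6 members, 2 had PS19 and WT ranges that did not overlap, Csf1r and Csf2rb, where 5.93% of tested genes lay wholly higher in PS19. Rn45s made up 0.873 to 3.65% of gene counts in PS19 and 2.85 to 4.48% in WT. In a fit that included this share, the calls of all 4 members stood, with adjusted p of up to 0.0409.

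**Figure D2:**
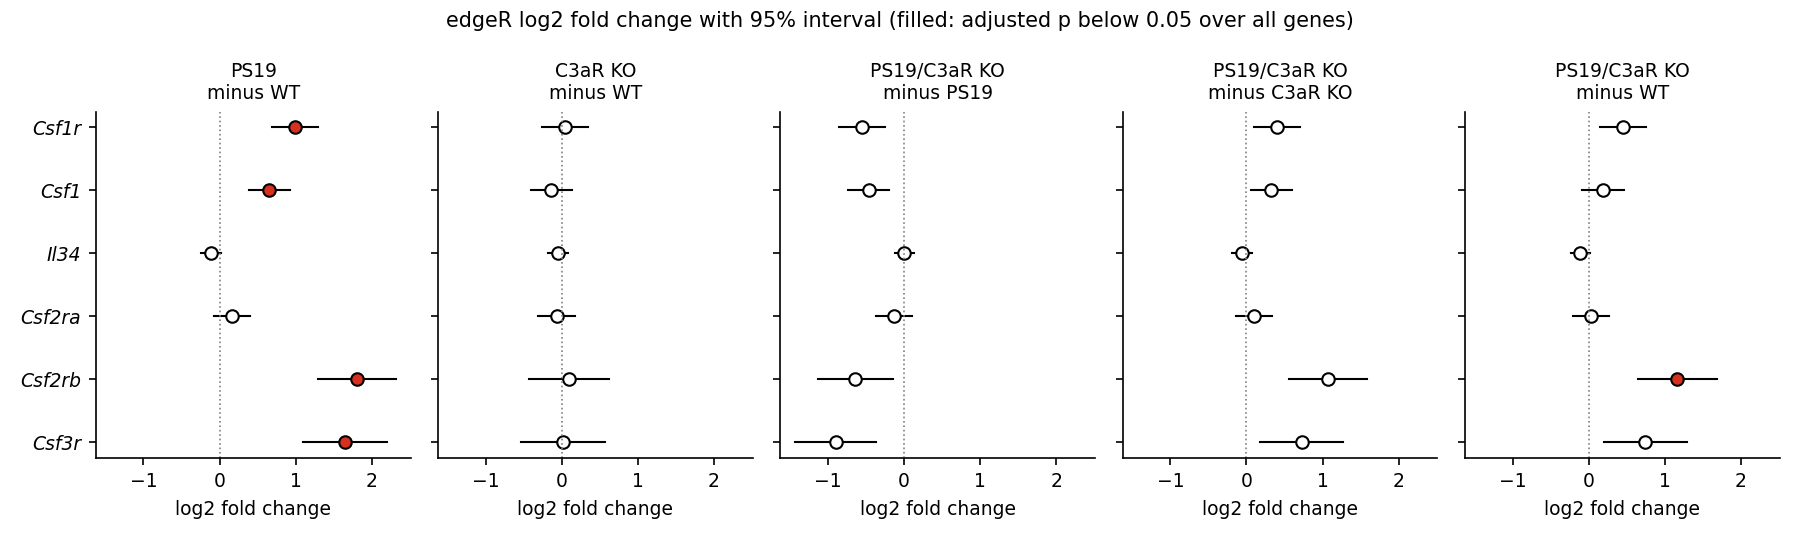
edgeR log2 fold change of each gene (horizontal axis) with its 95% interval in 5 comparisons, filled where the adjusted p over all genes was below 0.05. Csf1r (0.996), Csf1 (0.65), Csf2rb (1.81) and Csf3r (1.65) are filled in PS19 minus WT, Csf2rb (1.16) is filled in PS19/C3aR KO minus WT, and the other 3 comparisons have no filled point.

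The 4 genes that rose did so beside a broad rise of microglial markers. All 15 general microglial markers rose in PS19, with a median log2 fold change of 1.57, and their summed level was 435 to 1090 CPM in PS19 against 270 to 300 CPM in WT. Of the 11 homeostatic microglial markers, genes typical of resting microglia, 10 rose, with a median of 0.66 and a summed level of 364 to 647 CPM in PS19 against 290 to 325 CPM in WT. Of the 8 astrocyte markers 7 rose, with a summed level of 7160 to 10900 CPM in PS19 against 6010 to 6460 CPM in WT. Of the 8 markers of border-associated macrophages 1 rose, and their sum was 10.3 to 21.2 CPM in PS19 and 8.82 to 14.3 CPM in WT. Of the 8 oligodendrocyte markers 2 rose, with 7 at an unadjusted edgeR p below 0.05, as were 4126 of all 16657 genes. The oligodendrocyte marker sum was 5860 to 6610 CPM in PS19 and 3560 to 5440 CPM in WT, ranges that did not overlap. Of the 8 neuron markers 2 fell and 0 rose, with a sum of 4910 to 5780 CPM in PS19 and 5570 to 6170 CPM in WT. No marker of these lists was at 0 in all 5 libraries of a genotype. The part of each cell type in the members' changes was not tested.

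Csf1r rose less than most general microglial markers and more than most homeostatic ones. Of the 15 general markers 14 had a larger log2 fold change, within a range of 0.90 (the integrin Itgam) to 2.01 (the complement gene C1qa). Of the 11 homeostatic markers 2 did, within a range of 0.46 (the purine receptor P2ry12) to 1.26 (Fcrls). Within a library, log2 Csf1r minus the mean log2 level of the 15 general markers was 2.46, 2.40, 2.32, 2.41 and 2.84 in PS19 libraries, against 3.14, 2.82, 2.99, 3.08 and 2.93 in WT libraries. This difference averaged 2.49 ± 0.205 in PS19 and 2.99 ± 0.126 in WT (SD, n = 5 each). It was 0.50 lower in PS19, with 4 of 5 PS19 libraries below all WT libraries (two-sided exact permutation test, p = 0.0159, 0.0423 adjusted over 8 tests, where the smallest possible p is 0.00794). The call was lost in 7 of 10 leave-outs, those of PS19 libraries 1 and 4 and of each WT library (differences of −0.55 to −0.47, adjusted p = 0.0635 by the same exact test). With a library left out the exact test has fewer libraries and fewer arrangements. Measured against the homeostatic markers instead, the direction turned and Csf1r was 0.27 higher in PS19, which did not pass (adjusted p = 0.0635). The sign of this measure thus depends on the list of microglial genes.

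**Figure D3:**
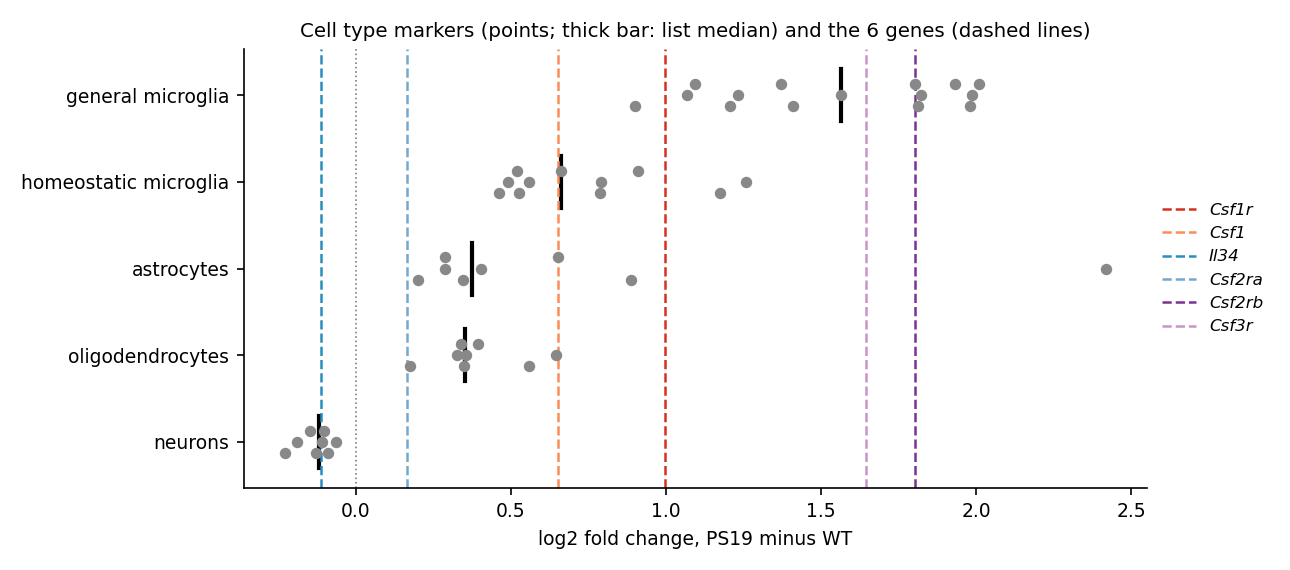
Log2 fold change, PS19 minus WT (horizontal axis), of the marker genes of 5 cell types (points, with the list median as a thick bar) and of the 6 genes (dashed lines). The Csf1r line at 0.996 lies below 14 of the 15 general microglial markers and above 9 of the 11 homeostatic ones.

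The ratio of the ligand transcripts, Csf1 over Il34, was higher in PS19, with a call that most leave-outs ended. The ratio of Csf1 to Il34 CPM was 1.78, 1.23, 1.38, 1.75 and 1.03 in PS19 libraries, against 1.03, 0.771, 0.895, 0.725 and 0.776 in WT libraries. On the log2 scale it was 0.49 ± 0.336 in PS19 and −0.26 ± 0.205 in WT (SD, n = 5 each). The difference of 0.75 had an exact permutation p of 0.0159 (two-sided, 0.0423 adjusted over the same 8 tests), and 4 of 5 PS19 libraries were above all WT libraries. This call too was lost in 7 of 10 leave-outs, without PS19 library 1 or 4 or any 1 WT library (differences of 0.67 to 0.83, adjusted p = 0.0635 by the exact test). Here too a leave-out has fewer libraries and fewer arrangements. The ratio is not corrected for transcript length, so it compares genotypes and not the amounts of the ligands.

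**Figure D4:**
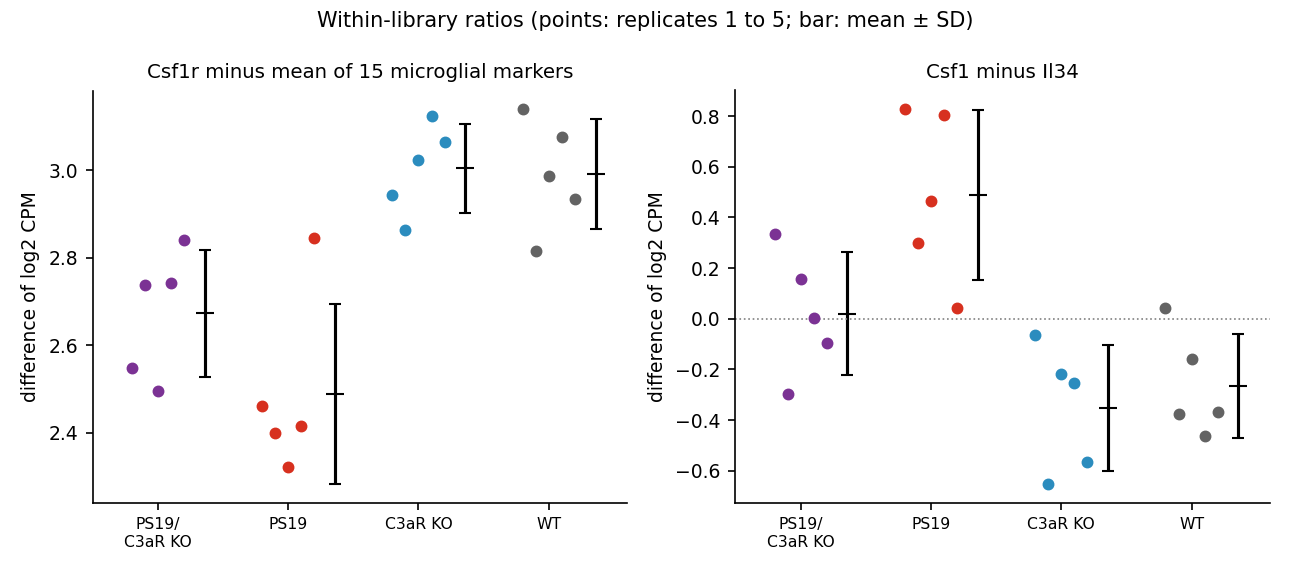
Within-library ratios as differences of log2 CPM (vertical axes): Csf1r minus the mean of 15 general microglial markers (left) and Csf1 minus Il34 (right), with points for replicates 1 to 5 and bars for the mean ± SD in PS19/C3aR KO, PS19, C3aR KO and WT libraries. On the left, PS19 (mean 2.49) and PS19/C3aR KO (mean 2.67) lie below C3aR KO (mean 3.004) and WT (mean 2.99), and on the right PS19 (mean 0.49) lies highest.

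Genes that act below or above the receptor were followed in lists. Of 27 genes of CSF1R signalling, 11 rose and 1 fell in PS19 relative to WT, where 7.5% of all tested genes rose. Their median log2 fold change was 0.20 against −0.01 over all genes. Without PS19 library 3, 8 rose and 0 fell. The 4 with the lowest p were Tyrobp, an adaptor that couples to CSF1R and to TREM2 and is also among the microglial markers above (1.98, edgeR adjusted p = 0.000163), the kinase Lyn (1.07, adjusted p = 0.000591), the phosphatase Ptpn6 (1.46, adjusted p = 0.000785) and the transcription factor Stat3 (0.64, adjusted p = 0.000856). The inositol phosphatase gene Inpp5d, Plcg2, Stat5a, Gab2 and Ccnd1 were among the others that rose. The widely used adaptors and kinases Grb2, Sos1, Akt1 and Src had log2 fold changes of −0.04, 0.06, −0.03 and −0.12, and none passed. Of the 11 genes that rose, Tyrobp, Lyn, Ptpn6 and Inpp5d are known chiefly from blood and myeloid cells. The rest of the 11 were not sorted in this way, and the part of any cell type in these changes was not tested.

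Of 12 regulators of the myeloid lineage and of Csf1r transcription, 5 rose and 0 fell, with a median log2 fold change of 0.51. Among them, Irf8 rose by 1.53 (edgeR adjusted p = 0.000239), Runx1 by 1.78 (adjusted p = 0.000239), Spi1, which encodes PU.1, by 1.37 (adjusted p = 0.000279) and the microglial factor Sall1, also counted among the homeostatic markers, by 0.49 (adjusted p = 0.00250). Fos and Jun, which make AP-1, had values of 0.26 and −0.10 and did not pass.

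The other cytokine and receptor partners gave no call. The genes for GM-CSF (Csf2), G-CSF (Csf3), IL-3 (Il3) and IL-5 (Il5) were too low to be tested: Csf3 averaged 0.0375 CPM in PS19 and 0.0466 CPM in WT, and Csf2 averaged 0.00524 CPM in PS19 and 0 in WT. Of the 6 partners that were tested, 0 passed by edgeR. DESeq2 called 2 higher and limma-voom 0, and edgeR called 2 higher without PS19 library 5. An unadjusted edgeR p below 0.05 was found for 3 of the 6, and for 4126 of all 16657 genes. The 3 were Il3ra, the alpha subunit for IL-3 (log2 fold change 0.53, adjusted p = 0.0724), Csf2rb2 (above) and Ptprz1, a phosphatase that also binds IL-34 (0.20, adjusted p = 0.0946).

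Because CSF1R signalling is known to drive microglial proliferation, 16 genes of cell division were read beside it. Of the 15 tested, 3 rose in PS19: the topoisomerase Top2a by 1.36 (edgeR adjusted p = 0.00525), the ribonucleotide reductase subunit Rrm2 by 0.67 (adjusted p = 0.00933) and the cyclin-dependent kinase Cdk1 by 1.21 (adjusted p = 0.0401). All 3 were at low levels, with Top2a at 2.29 ± 0.529 CPM in PS19 and 0.891 ± 0.229 CPM in WT. The most used proliferation marker, Mki67, averaged 3.66 ± 0.786 CPM in PS19 and 3.36 ± 0.352 CPM in WT and did not pass (log2 fold change 0.12, adjusted p = 0.708). The list median was 0.17, and 2 rather than 3 of its genes rose without PS19 library 3.

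The comparison of C3aR KO with WT asks how the libraries labelled C3aR KO differed in the absence of the transgene; since C3ar1 went against that label, it is not given as the effect of a knockout. No member passed: adjusted p ranged from 0.925 to 0.998 by edgeR, 0 of 6 had an unadjusted p below 0.05, against 6% of all genes, and DESeq2 and limma-voom made 0 calls, where 0.06% of all genes were called by edgeR. Csf1r had 92.4, 86.5, 95.3, 109 and 109 CPM in the C3aR KO libraries, against 102, 82.5, 93.8, 102 and 96.6 CPM in WT, a log2 fold change of 0.05 with a 95% interval of −0.26 to 0.35. Csf1 averaged 28.5 ± 3.42 CPM in C3aR KO and 31.4 ± 3.83 CPM in WT, with a log2 interval of −0.41 to 0.13. Csf3r averaged 8.13 ± 0.776 CPM in C3aR KO and 8.03 ± 1.47 CPM in WT (SD, n = 5 each), with a log2 interval of −0.53 to 0.57. General microglial markers summed to 273 to 307 CPM in C3aR KO and 270 to 300 CPM in WT. The Csf1 to Il34 ratio (log2 difference −0.09, adjusted p = 0.653) and Csf1r relative to the general markers (0.01, adjusted p = 0.849) did not pass in exact permutation tests.

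The comparison of PS19/C3aR KO with PS19 asks whether the libraries labelled as lacking C3aR differed in the presence of the transgene. The 4 members that rose in PS19 each had lower means in PS19/C3aR KO, by log2 0.47 to 0.90, and none passed. This comparison and that of PS19 with WT share their PS19 libraries. Since the 4 were singled out by high values in those libraries, lower means here are favoured by that choice. By edgeR 0 of 6 members were called, where 0.252% of all genes were, although 4 had an unadjusted p below 0.05, as did 14.5% of all genes. DESeq2 called 3 members lower, against 1.97% of genes with a DESeq2 adjusted p, and limma-voom 0.

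Csf1r had 163, 107, 163.5, 114 and 102 CPM in PS19/C3aR KO libraries 1 to 5, against 203, 190.2, 211, 219.8 and 127.5 CPM in PS19 libraries. PS19/C3aR KO libraries 1 and 3 stood above the other 3 of their group, and PS19 library 5 lay within the PS19/C3aR KO range. On the log2 scale the difference was −0.55 (SE 0.145; edgeR adjusted p = 0.0900). Without PS19 library 5 it was −0.66 and passed (adjusted p = 0.00868), and without PS19/C3aR KO library 1 it was −0.64 and passed (adjusted p = 0.0432). Over all 20 leave-outs the adjusted p ran from 0.00868 to 0.276. DESeq2 gave an adjusted p of 0.0172, within 0.0172 to 0.253 over 10 other settings.

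Csf1 had 45.4, 29.8, 38.4, 34.1 and 31.2 CPM in PS19/C3aR KO libraries, against 58.3, 47.0, 50.0, 55.3 and 36.2 CPM in PS19 libraries. The groups overlapped through PS19/C3aR KO libraries 1 and 3 and PS19 library 5. Csf1 differed by −0.47 on the log2 scale (SE 0.129; edgeR adjusted p = 0.105), or −0.56 without PS19 library 5 (adjusted p = 0.0177) and −0.57 without PS19/C3aR KO library 1 (adjusted p = 0.0426), in a range of 0.0177 to 0.294 over the leave-outs. DESeq2 gave an adjusted p of 0.0291. Il34 averaged 34.9 ± 1.35 CPM in PS19/C3aR KO and 34.8 ± 2.62 CPM in PS19 (SD, n = 5 each), with a log2 interval of −0.13 to 0.13.

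Csf3r had 19.4, 10.05, 18.6, 10.5 and 8.91 CPM in PS19/C3aR KO libraries, against 28.2, 27.2, 34.1, 26.3 and 9.99 CPM in PS19 libraries. PS19 library 5 again lay among the PS19/C3aR KO values, and the other 4 PS19 libraries were above all of them. Csf3r differed by −0.90 on the log2 scale (SE 0.256; edgeR adjusted p = 0.112), or −1.10 without PS19 library 5 (adjusted p = 0.00645), in a range of 0.00645 to 0.298 over the leave-outs. DESeq2 gave an adjusted p of 0.0253. Csf2rb averaged 3.30 ± 0.873 CPM in PS19/C3aR KO and 5.15 ± 1.97 CPM in PS19 (SD, n = 5 each). Csf2rb differed by −0.64 on the log2 scale (SE 0.235; edgeR adjusted p = 0.206), or −0.80 without PS19 library 5 (adjusted p = 0.0427), in a range of 0.0427 to 0.487. Csf2ra averaged 25.7 ± 1.96 CPM in PS19/C3aR KO and 28.2 ± 4.28 CPM in PS19, with a log2 interval of −0.37 to 0.10.

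General microglial markers followed the same libraries. They summed to 662 and 710 CPM in PS19/C3aR KO libraries 1 and 3 and to 339 to 407 CPM in the other 3, against 922 to 1090 CPM in 4 PS19 libraries and 435 CPM in PS19 library 5. By edgeR 0 of the 15 passed in this comparison (median log2 fold change −0.78), with 14 at an unadjusted p below 0.05, 11 called lower by DESeq2 and 1 by limma-voom, and 12 called lower by edgeR without PS19 library 5. Of the 11 homeostatic markers edgeR called 1 lower, Selplg (−0.53, adjusted p = 0.0363), with 8 at an unadjusted p below 0.05, and their sum was 336 to 465 CPM in PS19/C3aR KO and 364 to 647 CPM in PS19. Among other cell types, 6 of 8 astrocyte markers and 5 of 8 oligodendrocyte markers had an unadjusted p below 0.05, with 0 of each called by edgeR and 2 and 0 called lower by DESeq2. Astrocyte markers summed to 6770 to 8350 CPM in PS19/C3aR KO and 7160 to 10900 CPM in PS19, and oligodendrocyte markers to 4220 to 5750 CPM in PS19/C3aR KO and 5860 to 6610 CPM in PS19. The part of any of these lists in the members' differences was not tested. Set against the general microglial markers, Csf1r differed by 0.18 (exact permutation test, adjusted p = 0.191), or by 0.27 without PS19 library 5 (adjusted p = 0.0381). The log2 ratio of Csf1 to Il34 was 0.02 ± 0.242 in PS19/C3aR KO and 0.49 ± 0.336 in PS19 (SD, n = 5 each), a difference of −0.47 that did not pass after adjustment (exact permutation p = 0.0397, adjusted p = 0.0794), or −0.58 without PS19 library 5 (adjusted p = 0.0381). Of the 27 signalling genes 0 passed by edgeR, with 11 at an unadjusted p below 0.05, 5 called lower by DESeq2 and 0 by limma-voom, and 7 called lower by edgeR without PS19 library 5. Of the 12 regulators 0 passed by edgeR, with 6 at an unadjusted p below 0.05, 1 called lower by DESeq2 and 0 by limma-voom, and 4 called lower by edgeR without PS19 library 5. Of the 6 partners and 15 cell division genes tested, 0 passed by edgeR, DESeq2 or limma-voom, with 0 and 2 at an unadjusted p below 0.05.

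The comparison of PS19/C3aR KO with C3aR KO asks what the transgene did among the libraries labelled C3aR KO. By edgeR 0 of 6 members passed, as did 0.006% of all genes, while 4 members had an unadjusted p below 0.05, all higher, against 9.71% of all genes in either direction. DESeq2 called 1 member higher, against 0.751% of genes with a DESeq2 adjusted p, and limma-voom 0. Csf2rb had 4.30, 2.59, 4.14, 3.07 and 2.42 CPM in PS19/C3aR KO libraries, against 1.69, 1.25, 1.24, 1.43 and 2.21 CPM in C3aR KO libraries. The groups did not overlap, which held for 1.3% of all genes in this direction. Csf2rb differed by 1.07 on the log2 scale (SE 0.245; edgeR adjusted p = 0.106), with a DESeq2 adjusted p of 0.00766, in a range of 0.00766 to 0.336 over 10 settings. Without PS19 library 5, which enters only the shared estimate of spread here, Csf2rb passed by edgeR (adjusted p = 0.0311).

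Csf1r averaged 130 ± 30.7 CPM in PS19/C3aR KO and 98.5 ± 10.3 CPM in C3aR KO (log2 fold change 0.40, adjusted p = 0.319). Csf3r averaged 13.5 ± 5.06 CPM in PS19/C3aR KO and 8.13 ± 0.776 CPM in C3aR KO (0.73, adjusted p = 0.312), and Csf1 averaged 35.8 ± 6.31 CPM in PS19/C3aR KO and 28.5 ± 3.42 CPM in C3aR KO (0.33, adjusted p = 0.381; SD, n = 5 each). General microglial markers summed to 339 to 710 CPM in PS19/C3aR KO and 273 to 307 CPM in C3aR KO. Set against them, Csf1r was lower by 0.33 on the log2 scale, with all 5 PS19/C3aR KO libraries below all 5 C3aR KO libraries (exact permutation p = 0.00794, the smallest possible, adjusted p = 0.0423). Set against the homeostatic markers the direction turned, to a difference of 0.03 (adjusted p = 0.730). The Csf1 to Il34 ratio was 0.37 higher on the log2 scale (adjusted p = 0.102), or 0.45 without PS19/C3aR KO library 2 (adjusted p = 0.0476).

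Relative to WT, the PS19/C3aR KO libraries were higher in Csf2rb by log2 1.16 (SE 0.247, edgeR adjusted p = 0.0316), the 1 member of 6 that passed, where 1.07% of all genes did. The 5 PS19/C3aR KO libraries, at 2.42 to 4.30 CPM, lay above the 5 WT libraries, at 1.26 to 1.66 CPM, as did 2.06% of all genes. This call was lost with limma-voom (adjusted p = 0.0888), in a fit that included the Rn45s share (adjusted p = 0.170), and without any 1 of WT libraries 1, 3, 4 and 5 and PS19/C3aR KO libraries 1 and 3 (adjusted p of 0.0583 to 0.0968). Csf1r (0.45, adjusted p = 0.135), Csf3r (0.74, adjusted p = 0.164) and Csf1 (0.19, adjusted p = 0.533) did not pass. Csf3r passed without PS19 library 5 (0.75, adjusted p = 0.0469). General microglial markers summed to 339 to 710 CPM in PS19/C3aR KO and 270 to 300 CPM in WT, and 4 of the 15 passed, or 12 without PS19 library 5. That library is in neither group of this comparison and enters only through the shared fit. Of the listed genes, Tyrobp (1.14, adjusted p = 0.0354) and Runx1 (1.07, adjusted p = 0.0396) also passed here by edgeR, while limma-voom called 0 of the 27 signalling genes and 0 of the 12 regulators. The comparisons of PS19 and of PS19/C3aR KO with WT share their WT libraries.

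Whether the transgene's effect differed between the backgrounds was tested as an interaction: PS19/C3aR KO over C3aR KO, minus PS19 over WT. It was −0.60 for Csf1r (SE 0.205), −0.92 for Csf3r (SE 0.367), −0.73 for Csf2rb (SE 0.344) and −0.32 for Csf1 (SE 0.183) on the log2 scale. These values use the same PS19 and WT libraries in which the 4 genes were seen to rise. No member passed (all edgeR adjusted p = 0.9995, with 0.012% of all genes called). Csf1r, Csf3r and Csf2rb had an unadjusted p below 0.05, as did 4.15% of all genes, and DESeq2 and limma-voom called 0 members.

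Genes with the most similar pattern over the 20 libraries were listed for each member, as a description. For Csf1r they included Itgb2 (Pearson r = 0.988), Laptm5, Cd48 and Spi1, and after subtraction of each genotype's mean Itgb2 still led (r = 0.968). For Csf1 they were Slc14a1 (r = 0.960), Cnn3, Cd9, Flnc and Ddr1, and within genotypes Cd9 led (r = 0.940). For Csf2rb Lyz2 led (r = 0.980, or 0.930 within genotypes) and for Csf3r Havcr2 (r = 0.981), with Vav1 first within genotypes (r = 0.948). Csf2ra was closest to Plekha4 in both (r = 0.946 and 0.953), and for Il34 the highest values were lower, at 0.813 for Cops8 and 0.807 within genotypes for Rab15. These are the highest of 15316 genes compared and share libraries, depth and normalization with the member.

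Within genotypes the members fell apart in the same way, where this means the 20 libraries pooled after subtraction of each genotype's mean. Csf1r and Csf3r had r = 0.841, Csf1r and Csf2rb 0.792 and Csf1r and Csf1 0.776. Il34 and Csf1r had 0.0404 and Csf2ra and Csf1r 0.193. No r is given for a genotype alone. In PS19 and in PS19/C3aR KO, library 5 was lowest in both Csf1r and Csf3r. In C3aR KO, library 5 was highest in Csf1r (109.3 CPM) and lowest in Csf3r (6.95 CPM). In WT, library 1 was highest in Csf1r (102.1 CPM) and lowest in Csf3r (6.439 CPM). The pooled values thus do not show that this pair moved together inside every genotype. Against the mean of the 15 general microglial markers Csf1r and Csf3r each had r = 0.934, Csf2rb 0.836, Csf1 0.718, Csf2ra 0.421 and Il34 0.0530. The astrocyte markers gave values as high or nearly so for Csf1r (0.905), Csf2rb (0.892) and Csf1 (0.734), so these correlations do not single out microglia. Csf2rb also had r = 0.752 with the markers of border-associated macrophages. For Csf3r the astrocyte value was lower, at 0.775, and the gap to the microglial value was not tested. Against the neutrophil markers Csf3r had r = 0.0403. Csf2ra ran against the choroid plexus markers (r = −0.71), whose most abundant gene, Ttr, varied from 15.1 to 3928 CPM in PS19/C3aR KO, 38.6 to 4059 CPM in PS19, 9.53 to 2999 CPM in C3aR KO and 12.2 to 1898 CPM in WT. Markers of cortical layers gave Csf2ra r = 0.627, those of hippocampal neurons −0.551 and those of oligodendrocytes −0.481.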

How the data were processed

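Polyadenylated hippocampal RNA was sequenced as 76-nt read pairs, aligned with TopHat2 2.0.9 to mm10 and counted per gene over exons with HTSeq, per the labels' protocols. The deposited values are whole-number counts per gene, with no normalization by the authors. The annotation release, like the strand setting, was not given in the sources used here. The 5 summary lines of each file were left out. Read pairs on no gene made up 17.4 to 25.4% and ambiguous pairs 1.39 to 1.64%.

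From these counts, edgeR 4.0.16 in R 4.3.3 fitted 1 quasi-likelihood model over the 20 libraries by genotype, with TMM factors and filterByExpr (minimum count 10, minimum total 15). A call is a Benjamini-Hochberg adjusted p below 0.05 over 16657 genes in a comparison. Alternatives were DESeq2 1.42.0, limma-voom (limma 3.58.1), other scalings, filters, covariates and leave-outs, and the tests were tried on simulated data. In simulated PS19 minus WT data, 28 of 183 DESeq2 calls fell on unchanged genes, against 8 of 154 for edgeR and 8 of 154 for limma-voom. DESeq2 recovered 83% of the simulated 2-fold changes, and edgeR and limma-voom 81% each. Ratios used log2 CPM with a prior count of 2 and two-sided exact permutation tests over libraries. Gene positions and exon lengths are from GENCODE on GRCm38 (mm10), promoters from RefSeq on GRCm38.p6. The 6 members and all lists were chosen with earlier results of these data known. Named besides the members were C3ar1, Prnp, Rn45s and Ttr, the 4 called genes of a list with the lowest p, and the 5 genes most like each member, apart from a few genes that are not reported here. Other names, and list counts by other tools or without PS19 libraries 3 and 5, were added after values were seen. Each of 40 same-group pairs of libraries differed beyond sampling noise.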

Additional observations from a re-analysis of the deposited data

Results flagged for a closer look

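In 32 groups of 5 libraries, 2 held a library far from the others by Dixon's criterion, which chance alone meets in about 1 in 20 groups. Csf2ra was 22.3 CPM in PS19/C3aR KO library 5, where the nearest other library of that group had 26.0 CPM. Csf1r relative to the 15 general microglial markers was 2.84 on the log2 scale in PS19 library 5, where the nearest other PS19 library had 2.46; this is the PS19 library whose microglial marker sum, Csf1r, Csf1, Csf2rb and Csf3r were the lowest of its group.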

How the results depend on the processing

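The calls of Csf1r, Csf1, Csf2rb and Csf3r in PS19 minus WT stood under all 10 other settings and all 20 leave-outs, with Csf1r at 0.84 to 1.06 over the settings. Over all members and comparisons, 347 results neither gained nor lost a call in other settings, 5 gained a call and 2 lost one. Over leave-outs these were 706, 8 and 6. Results with no call in either fit were counted as unchanged even where the sign turned. Csf1r in C3aR KO minus WT, for example, ran from −0.098 to 0.088 over the settings. In PS19/C3aR KO minus PS19, members called were 0 by edgeR, 3 with DESeq2, 1 with the replicate block (Csf1 −0.47, adjusted p = 0.0144) and 0 to 4 over leave-outs; between PS19/C3aR KO and C3aR KO, 1 with DESeq2 and 0 to 1 over leave-outs; in PS19/C3aR KO minus WT 0 with limma-voom (Csf2rb 1.12, adjusted p = 0.0888) and 0 with the Rn45s covariate (Csf2rb 1.02), and 0 to 2 over leave-outs (Csf2rb 1.051 to 1.256). Genes called in PS19 minus WT were 1803, or 431 with the Rn45s covariate and 1190 to 2240 over leave-outs; library totals without TMM gave 1795 higher and 176 lower in place of 1250 and 553, with the median log2 fold change at 0.05. In C3aR KO minus WT they were 10, or 59 (DESeq2), 5 (the 2 groups alone), 3 (Rn45s covariate) and 5 to 15 over leave-outs. In PS19/C3aR KO minus PS19 they were 42, or 447 (DESeq2), 24 (library totals), 89 (limma-voom), 10 (the 2 groups alone), 9 (Rn45s covariate), 212 (replicate block) and 6 to 481 over leave-outs. In PS19/C3aR KO minus C3aR KO they were 1, or 161 (DESeq2), 22 (replicate block) and 1 to 105 over leave-outs. In PS19/C3aR KO minus WT they were 179, or 601 (DESeq2), 276 (library totals), 99 (limma-voom), 43 (the 2 groups alone), 20 (Rn45s covariate), 393 (choroid plexus covariate), 305 (replicate block) and 28 to 395 over leave-outs; in the interaction 2, or 1 (limma-voom) and 2 to 5 over leave-outs. The cause of these shifts was not tested. Replicate numbers did not pair the libraries throughout: 16 of 30 same-number pairs had a correlation of deviations above 0.1, in a range of −0.273 to 0.55. Only 6 of 20 libraries correlated best with their own number. Correlations were 0.116 to 0.419 for replicate 1 and 0.0515 to 0.55 for replicate 2, against −0.273 to 0.514 for replicates 3 to 5. Csf1r relative to microglial markers reversed with the homeostatic list, to 0.27 in PS19 minus WT and 0.027 in PS19/C3aR KO minus C3aR KO. Over leave-outs this measure was −0.59 to −0.46 in PS19 minus WT (adjusted p 0.0212 to 0.0635) and 0.14 to 0.27 in PS19/C3aR KO minus PS19. The log2 ratio of Csf1 to Il34 was 0.67 to 0.86 in PS19 minus WT (adjusted p 0.0212 to 0.0635), −0.58 to −0.38 in PS19/C3aR KO minus PS19 and 0.29 to 0.45 in PS19/C3aR KO minus C3aR KO. Both measures lost their PS19 minus WT call in 7 of 10 leave-outs. Csf2rb, at 41 to 63 counts in WT, is the member with the fewest counts.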
